A study of Mus musculus with 8 samples.

Results

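The let-7 family is one of the most abundant miRNA families of adult mouse tissues, and its 8 members on the DNA chip were examined here across lung, liver, kidney and heart of young and elderly mice. The members were taken by the name of the probe, mmu-let-7a, mmu-let-7b, mmu-let-7c, mmu-let-7d, mmu-let-7e, mmu-let-7f, mmu-let-7g and mmu-let-7i (the prefix for mouse is left out from here on), and they are 8 of the 200 miRNAs on the chip. The probe for let-7d*, the other strand of the let-7d hairpin, is a separate one and was not counted as a member. The samples were total RNAs of male ICR mice, an outbred stock, at 1 month (young) and 14 months (elderly) of age, and each of the 8 chips held RNA of 1 tissue at 1 age. The labels name no treatment, and they do not state if 1 mouse gave all 4 tissues of an age or if RNAs of several mice were pooled.

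let-7 was discovered in the nematode Caenorhabditis elegans, where it times the passage from larval to adult cell fates. In mammals, mature let-7 is scarce in embryonic stem cells and accumulates as cells differentiate, and the RNA-binding protein LIN28 holds back the processing of its precursors. Known targets in mammals include the Ras genes, Hmga2 and Lin28 itself, so that the family is mainly known as a brake on proliferation. Members are recognised by a shared seed, the bases 2 to 8 with which a miRNA pairs to its targets.

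The mature sequences are shown because the members differ by so few bases that probe signals must be read with the sequences in view. They were taken from RefSeq (GRCm38.p6), are written 5′ to 3′ and have the seed in capitals.
let-7a: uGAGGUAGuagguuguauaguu
let-7b: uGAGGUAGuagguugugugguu
let-7c: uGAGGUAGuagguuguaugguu
let-7d: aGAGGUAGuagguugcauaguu
let-7e: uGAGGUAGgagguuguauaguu
let-7f: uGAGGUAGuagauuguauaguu
let-7g: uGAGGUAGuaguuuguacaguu
let-7i: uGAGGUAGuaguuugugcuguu

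All 8 members matched an entry and carry the seed GAGGUAG, which 11 mature miRNAs of that table have. The other 3, miR-98, miR-1961 and let-7k, have no probe on the chip. Counted from 1 at the 5′ end, with the base of let-7a first, let-7c differs by A19G, let-7e by U9G and let-7f by G12A. let-7b differs by A17G and A19G, and let-7d by U1A and U16C. let-7g and let-7i share G12U and U18C, and let-7i has A17G and A19U besides. The signal of a probe can therefore hold labelled RNA of a sister member, and the part of such cross-hybridization in the values below was not tested.

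The genes of the members lie at several places in the genome (GRCm38.p6). Mirlet7a-1 (mature sequence at chr13:48538239-48538260, minus strand), Mirlet7f-1 (chr13:48537889-48537910, minus) and Mirlet7d (chr13:48536078-48536099, minus) form 1 cluster. Mirlet7c-2 (chr15:85706616-85706637, plus) and Mirlet7b (chr15:85707325-85707346, plus) form another, within the long non-coding RNA gene Lncppara. Mirlet7e (chr17:17830366-17830387, plus) lies beside Mir99b and Mir125a within the span of Spaca6, Mirlet7c-1 (chr16:77599672-77599693, plus) beside Mir99a, and Mirlet7f-2 (chrX:151912353-151912374, plus) beside Mir98 within Huwe1. Mirlet7a-2 lies 5212 bases from Mir100, within Mir100hg. Mirlet7g (chr9:106178846-106178867, plus), within the span of Wdr82, and Mirlet7i (chr10:122985698-122985719, minus) have no other miRNA gene within 10000 bases. A member with several genes has 1 probe, so that its genes are not separated.

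The chips differed in brightness. The signal summed over the 200 probes after background subtraction was between 13487 and 36448 units on the lung, kidney and heart chips, and 3313 and 5477 units on the young and elderly liver chips. On these, 53 and 57 miRNAs reached the detection limit of 10 units, against 88 to 110 on the others. The 75 probes below the limit on every chip had an SD of 1.23 to 1.86 units per chip, which shows the size of the noise near the background. Each chip was divided by 1 factor, its median ratio to the mean chip over the 46 miRNAs detected on all 8 chips, and the factor was 0.152 and 0.308 for the liver chips and 1.16 to 2.75 for the others. The liver and heart markers followed the labels: miR-122a, a miRNA of hepatocytes, was at 1193 and 1973 units in liver and below 10 units elsewhere, and the 4 heart muscle miRNAs summed to 6372 units or more in heart and to 123 units or less elsewhere. The kidney list had 3 of 4 members above the limit in kidney (miR-204 was not), but it did not set kidney apart: 2 of 4 were above the limit in liver, and its summed scaled level was 662 and 518 units on the young and elderly liver chips against 248 and 277 units on the kidney chips. The airway list had 4 of 4 in lung, 2 of 4 in kidney and 2 of 4 on the young heart chip. All 4 heart muscle miRNAs were also above the limit on both lung chips.

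All 8 let-7 members were detected on all 8 chips, and they made up 12.4% to 29.0% of the summed signal of a chip. let-7a, which ranked between 1 and 12 in brightness, gave 1626 and 1654 units in young and elderly lung, 732 and 499 units in heart, 773 and 688 units in kidney, and 87.0 and 174 units in liver. let-7c gave 1507 and 1716 units in lung, 640 and 425 units in heart, 753 and 715 units in kidney, and 76.0 and 173 units in liver. The liver values of both were the lowest, as for all other members, and those chips were dim as a whole. let-7i, the member that varied most, gave 664 and 474 units in young and elderly lung, 293 and 184 units in heart, 155 and 118 units in kidney, and 11.6 and 20.4 units in liver. let-7g gave 499 and 569 units in lung, 363 and 282 units in heart, 366 and 489 units in kidney, and 45.8 and 95.3 units in liver. In lung, let-7i was thus lower and let-7g higher on the elderly chip before scaling, and the same was seen in kidney. After scaling, let-7g in lung was slightly lower on the elderly chip, at 0.955-fold of the young. The remaining members ranged from 52.8 to 1107 units (let-7b), 59.7 to 1197 units (let-7d), 12.4 to 296 units (let-7e) and 66.3 to 1259 units (let-7f), each lowest on the young liver chip. Signals of different probes do not measure relative amounts of the members, since probes hybridize with different strength. In young liver, let-7i and let-7e lay 7.02 and 7.48 SDs of the dim probes above the background, closer to it than any other value of the family.

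**Figure D1:**
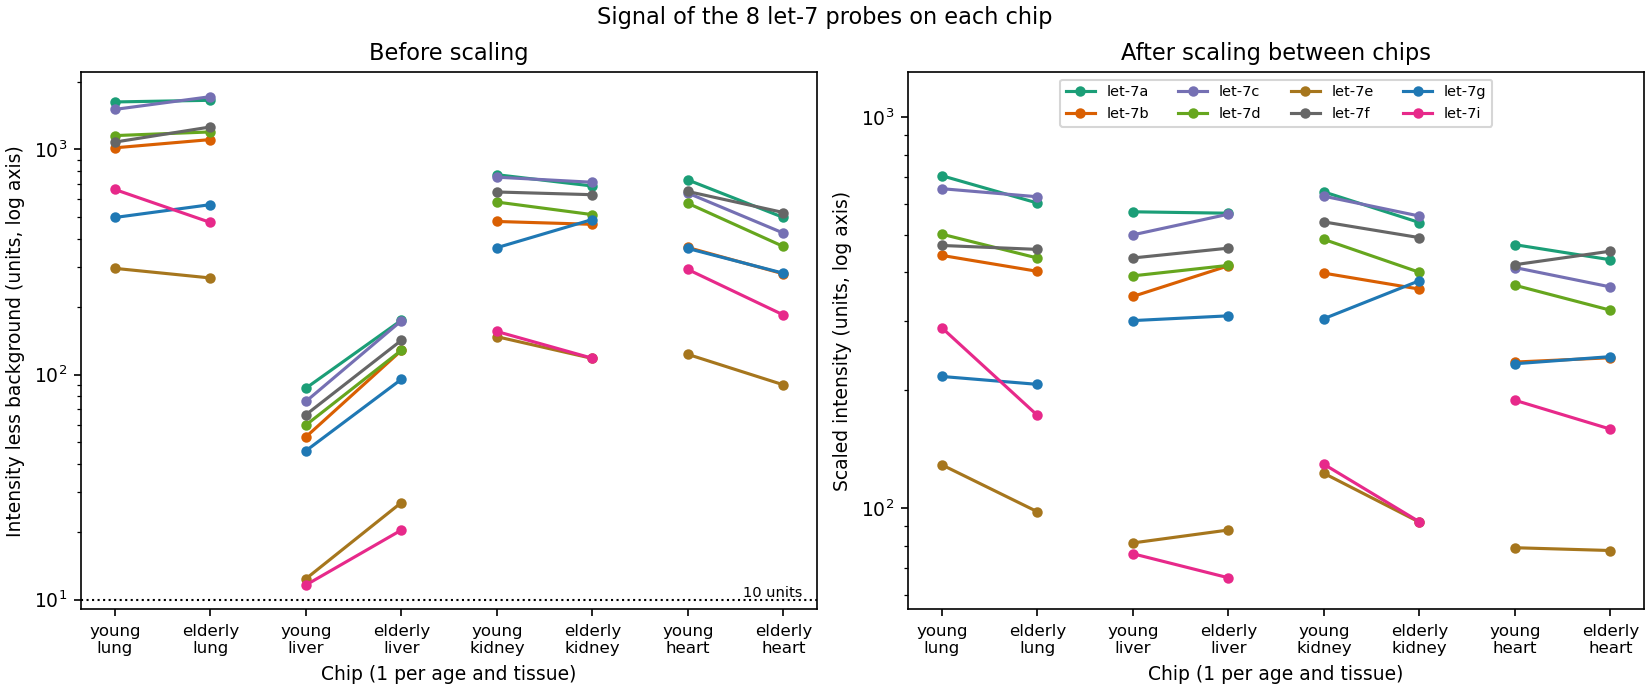
Signal of the 8 let-7 probes on the 8 chips on log axes, as intensity less background (left, with the detection limit of 10 units dotted) and after scaling between chips (right), with a line joining the young and elderly chip of a tissue and no error bars because there is 1 chip per age and tissue. The liver chips are dim before scaling, and let-7i goes from 664 units in young lung to 11.6 units in young liver.

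To see whether let-7 changed with age, the 2 ages were compared over the 4 tissues. None of the 8 members passed the test in either direction: 0 were higher and 0 lower in elderly mice, and the background over all 96 miRNAs tested was 3.12% higher and 0% lower (limma with tissue as a block, adjusted p under 0.05). The 3 miRNAs that passed were miR-29a, miR-29b and miR-29c. At an unadjusted p under 0.05, 1 of 8 members was lower, against a background of 13.5%. The median log2 change of the members was -0.10, beside -0.13 over all miRNAs tested. The tissues stand in for replicates here, so that the variation that enters the p-values is that among tissues, and variation among mice is not part of it.

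let-7i had the largest change of the family. After scaling, its values were 289 and 172 units in young and elderly lung, 188 and 159 units in heart, 129 and 92.1 units in kidney, and 76.3 and 66.3 units in liver. The elderly chip was lower in 4 of 4 tissues, which was also seen for 19.8% of the miRNAs tested. Some of the miRNAs tested were set to the floor on both chips of a tissue and could not be lower there. The elderly level of let-7i was 0.60-fold of the young in lung, 0.71-fold in kidney, 0.84-fold in heart and 0.87-fold in liver. Over the 4 tissues, the mean log2 change of let-7i was -0.42 (standard error 0.12), or 0.747-fold with a 95% interval of 0.596 to 0.937 that is not adjusted for the number of miRNAs. It did not pass after adjustment (adjusted p = 0.139 from limma, unadjusted 0.0220), and it was the 20th lowest of 96 changes. In the exact sign-flip permutation test, let-7i and let-7a both gave a two-sided p of 0.125, the minimum that a sample of 4 tissues permits, so that this test could not pass the threshold. Without scaling, its liver value was 1.75-fold higher on the elderly chip, where the median of the detected miRNAs was higher by 0.82 on the log2 scale.

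The changes of the other members were smaller, and none was distinguishable from the spread between tissues. let-7a was lower in 4 of 4 tissues, at -0.16 on average on the log2 scale, with a standard error of 0.085 (limma, adjusted p = 0.402). let-7e, let-7d and let-7c were lower in 3 of 4 tissues, with mean log2 changes of -0.18, -0.15 and -0.057. let-7b and let-7f were higher in 2 tissues and lower in 2, with mean log2 changes of 0.0067 and 0.0079. let-7g had the highest mean, 0.089 with a standard error of 0.098 (limma, adjusted p = 0.596), and was higher in 3 of 4 tissues. Its largest difference was in kidney, where the scaled value went from 305 units on the young chip to 381 units on the elderly one. The 95% intervals of the 7 members other than let-7i lay between 0.696-fold and 1.27-fold.

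Within a tissue there is 1 chip per age and no test. No member was above 1.5-fold or below 0.5-fold in any tissue. The background of miRNAs above 1.5-fold was 8.93% in lung, 12% in heart, 6.38% in kidney and 11.7% in liver, and that of miRNAs below 0.5-fold was 2.68%, 0%, 1.06% and 16.7%. The log2 differences of the 8 members were between -0.74 and -0.033 in lung, between -0.25 and 0.11 in heart, between -0.49 and 0.32 in kidney and between -0.20 and 0.26 in liver. All 8 members were lower on the elderly chip in lung (background 47.3%) and 7 of 8 in kidney (45.7%), while 2 of 8 were lower in liver (63.3%) and 5 of 8 in heart (49%). These backgrounds are not a like comparison. They include miRNAs set to the floor on both chips, which have a difference of 0 and cannot count as lower, while no member was at the floor. The median difference of the detected miRNAs was 0 in lung, kidney and heart. The directions of the members depend on the scaling: before it, 6 of the 8 members were higher on the elderly lung chip, all but let-7e and let-7i. Without scaling, all 8 members were above 1.5-fold in liver, between 1.75-fold and 2.42-fold, on the chip that was brighter as a whole.

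**Figure D2:**
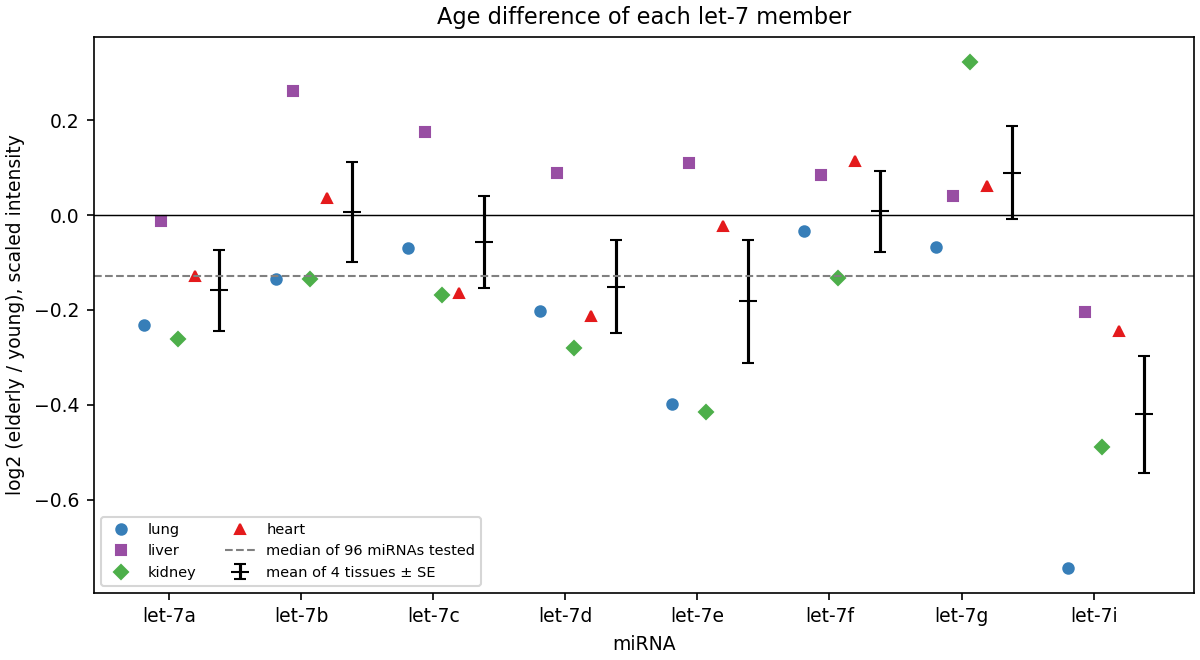
Log2 ratio of elderly to young scaled intensity of each let-7 member, with a point for each tissue (1 chip per age) and a bar for the mean of the 4 tissues with its standard error from limma. The points of let-7i lie below 0 in 4 of 4 tissues with a mean of -0.42, and the other means lie between -0.18 and 0.089, near the dashed median of the 96 miRNAs tested (-0.13).

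Levels were next compared between tissues, with the 2 chips of a tissue and age as a block. These 2 chips differ in age, so that the variation that enters the p-values is the unevenness of the age change between tissues. Variation among mice is not part of it. Of the 8 members, 4 differed between tissues, let-7b, let-7c, let-7g and let-7i, while 63.5% of all 96 miRNAs did (limma F test, adjusted p under 0.05). The 63.5% includes miRNAs below the limit in liver, where 10 units are 65.7 and 32.5 scaled units, above the floor. With a floor of 65.7 scaled units on every chip, chosen after seeing the data, 5 of the 8 members and 35 of the 96 miRNAs passed. That floor equals 10 units before scaling on the young liver chip and more on all others, so that detected miRNAs are set to it there too. The number of members called ran from 1 to 8 under the alternatives. The difference between the highest and the lowest tissue mean had a median of 0.61 (log2) over the members, beside 1.23 over all miRNAs tested. These medians are not a like comparison. The 8 members are among the 46 miRNAs that set the scaling factor, and the 1.23 also includes miRNAs below the limit in liver. Of 48 comparisons of 2 tissues (8 members, 6 pairs of tissues), 14 passed after adjustment over all miRNAs and pairs, against a background of 38.7%. In whole tissue, fewer cells of a type and less RNA per cell cannot be told apart.

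let-7i had the widest range, at 3.14-fold between lung and liver (adjusted p = 0.00457 for the F test of limma). Its mean scaled level was 223 units in lung, 173 in heart, 109 in kidney and 71.1 in liver, and the order of the tissues was the same at both ages. The comparison of lung and heart, neighbours in that order, did not pass (log2 difference 0.37, standard error 0.18, adjusted p = 0.181 from limma). Kidney was below heart (log2 difference -0.67, adjusted p = 0.0406 from limma) and liver below kidney (-0.62, adjusted p = 0.0495 from limma), each with a standard error of 0.18. These smaller steps depended on the processing: of 8 alternatives, kidney below heart lost the call under 5 (adjusted p from 0.0629 to 0.183, limma), namely quantile and 75th percentile scaling, let-7 left out of the scaling set, a floor of 30 units and no filter. Liver below kidney lost it under 6 (adjusted p from 0.0605 to 0.894, limma), the last 4 of these, a floor of 5 units and normexp. The larger steps were lung above kidney by 1.03 and lung above liver by 1.65 (adjusted p = 0.0120 and 0.00310 from limma). With 75th percentile scaling, the F test of let-7i was at adjusted p = 0.0524, lung above kidney at 0.80 (adjusted p = 0.0583 from limma) and lung above liver at 0.99 (adjusted p = 0.0340 from limma). The liver values of let-7i were the nearest to the background, and the F test also passed without the liver chips (adjusted p = 0.0260 from limma). With normexp background correction, which here also added an offset of 50 units, the log2 difference of liver against kidney was 0.034. Lung was above liver by 0.89 with it. The 4 blood cell miRNAs of the marker list had a summed scaled level of 121 and 144 units in young and elderly lung, 180 and 190 units in heart, 53.9 and 48.5 units in kidney and 87.0 and 60.4 units in liver. Lung and heart were thus the higher tissues for these miRNAs and for let-7i, with heart above lung for the former. Of the 4, 3 were above the limit of 10 units in lung and heart, 2 in kidney and at most 1 in liver, with miR-155 below it on every chip, and their part in the let-7i levels was not tested.

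let-7g had another order, kidney above liver, heart and lung, which was also the same at both ages. Its mean scaled level was 341 units in kidney, 305 in liver, 239 in heart and 212 in lung. The comparison of kidney and liver did not pass (adjusted p = 0.442 from limma), nor did that of heart and lung (adjusted p = 0.401 from limma) or liver and heart (adjusted p = 0.117 from limma). Liver was above heart by 1.12 with quantile scaling and by 0.96 with 75th percentile scaling (adjusted p = 0.0055 and 0.0054 from limma). Liver was below kidney with normexp (-0.47, adjusted p = 0.0316 from limma). Lung was below kidney with a log2 difference of -0.69 and below liver with -0.53 (standard error 0.14 each, adjusted p = 0.0195 and 0.0406 from limma). Kidney was above heart by 0.51 (adjusted p = 0.0432 from limma). Of 8 alternatives, lung below kidney passed under all, while lung below liver was lost under 4 (adjusted p from 0.0719 to 0.948, limma), among them let-7 left out of the scaling set (0.161), and kidney above heart under 3 (0.0568 to 0.0773). Background correction by normexp left the difference between lung and kidney at -0.49 and took that between lung and liver to -0.016, and with 75th percentile scaling liver was above kidney by 0.27 (adjusted p = 0.148 from limma). Without the lung chips, let-7g no longer passed the F test (adjusted p = 0.112 from limma), nor did it without the kidney chips (0.0696) or the heart chips (0.0649).

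let-7b and let-7c had their lowest mean in heart. The mean scaled level of let-7b was 239 units in heart, and lung was above it 1.77-fold, liver 1.59-fold and kidney 1.59-fold (adjusted p = 0.0137, 0.0247 and 0.0247 from limma). let-7c was at 389 units in heart, and lung was above it 1.64-fold and kidney 1.52-fold (adjusted p = 0.0168 and 0.0268 from limma). Lung above heart was lost only with 75th percentile scaling among 8 alternatives (adjusted p = 0.0565 for let-7b and 0.0662 for let-7c, limma), and kidney above heart with let-7 left out of the scaling set and with no filter (0.0550 to 0.0716). Among lung, liver and kidney, no comparison of either member passed, but this depended on the processing. The normexp setting also adds an offset of 50 units, beside 52.8 and 76.0 units of let-7b and let-7c on the young liver chip. The part of the offset in the normexp results was not tested. With normexp, lung was above liver by 0.72 on the log2 scale for let-7b and by 0.99 for let-7c (adjusted p = 0.00094 and 4.6e-06 from limma), and liver was below kidney for let-7c (-0.69, adjusted p = 0.0014 from limma, and -0.68, adjusted p = 0.0393, with quantile scaling). Under normexp let-7c was lowest in liver (liver against heart -0.17), and liver above heart for let-7b was 0.14 (adjusted p = 0.548 from limma). That call for let-7b was also lost with let-7 left out of the scaling set (0.114) and with no filter (0.0601). Both lost the F test when the 8 members were left out of the set of 46 that gives the scaling factor, and without the heart chips or the lung chips, and let-7c also without the kidney chips. Adjusted p was then between 0.0554 and 0.679 (limma). let-7a (lung above heart 1.45-fold, adjusted p = 0.0262 from limma, lost under 4 of 8 alternatives at 0.0594 to 0.115) did not pass the F test (adjusted p = 0.0547). let-7d, let-7e and let-7f did not pass it either, at adjusted p = 0.143, 0.144 and 0.379. Of 15 alternatives, the F test of let-7a passed under 7 and that of let-7c under 8, so that neither outcome is stable. let-7f was the steadiest member with the main processing, at 514 units in kidney, 463 in lung, 448 in liver and 436 in heart. With normexp, let-7a, let-7d and let-7f passed the F test. Under it, let-7f in liver was below lung by 0.70, kidney by 0.67 and heart by 0.49 on the log2 scale (adjusted p = 0.0012, 0.0019 and 0.0274 from limma).

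The composition of the family within a chip needs no scaling between chips, but it depends on the background subtraction. Most exposed to it are let-7i and let-7e in young liver, whose signals lay nearest to the background. Each member's log2 signal was set against the mean of the other 7 members on the same chip. let-7i stood at -0.43 against the others on the young lung chip and at -1.01 on the elderly one, and at -0.57 and -0.77 on the young and elderly heart chips. On the kidney chips it stood at -1.62 and -1.96, and on the liver chips at -2.11 and -2.42. Other members stood apart in other tissues: let-7g was at -0.90 and -0.71 on the lung chips and at -0.21 or higher on all others, and let-7b was at -0.19 and -0.073 on the heart chips and at 0.23 or higher on all others. let-7i made up 8.47% and 5.75% of the summed let-7 signal in young and elderly lung, 7.82% and 6.93% in heart, 3.98% and 3.16% in kidney, and 2.82% and 2.29% in liver. Its place among the members was lower on the elderly chip in 4 of 4 tissues, with a mean difference of -0.36 ± 0.16 on the log2 scale (SD over 4 tissues).

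let-7g moved the other way in most tissues. Its share was 6.36% and 6.90% in young and elderly lung, 9.70% and 10.6% in heart, 9.38% and 13.1% in kidney, and 11.1% and 10.7% in liver. The ratio of the let-7i to the let-7g signal went from 1.33 to 0.833 in lung, from 0.807 to 0.653 in heart, from 0.424 to 0.242 in kidney and from 0.253 to 0.214 in liver. It was lower on the elderly chip of every tissue, and the ratios themselves carry the strength of the probes. let-7b and let-7f stood higher among the members on the elderly chip in 4 of 4 tissues, by 0.13 ± 0.064 and 0.13 ± 0.10 (SD, n = 4 tissues). For these differences within the family, the exact sign-flip permutation test gave p = 0.125 (two-sided) for let-7b, let-7f and let-7i, the smallest it can give, and 0.25 or more for the other members. A ratio within a chip shows unequal change and not which member changed. In young and elderly lung, where the place of let-7i differed most, the 4 airway miRNAs summed to 172 and 335 scaled units, all 4 above the limit at both ages. The 4 blood cell miRNAs summed to 121 and 144 scaled units. Before scaling, miR-34b went from 98.9 to 344 units and miR-34c from 81.6 to 285 units. The other airway miRNAs moved less, miR-200b from 130 to 171 units and miR-200c from 84.7 to 123 units. The part of the airway and blood cell miRNAs in the let-7i difference was not tested.

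**Figure D3:**
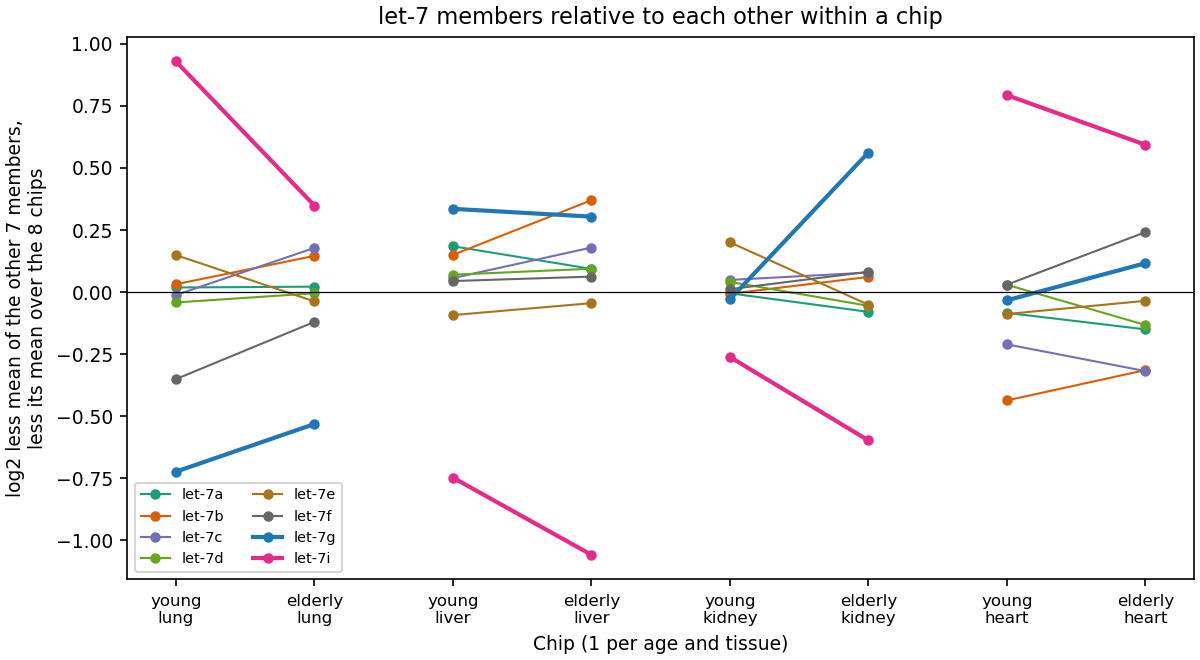
Log2 signal of each let-7 member less the mean of the other 7 members on the same chip, centred on the member's mean over the 8 chips, with a line joining the young and elderly chip of a tissue (1 chip each, no error bars). let-7i lies above its mean on the lung and heart chips and below it on the liver and kidney chips, and its line falls from young to elderly in every tissue.

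How alike the members' profiles were was measured, for each of the 28 pairs, by the SD over the 8 chips of the log2 ratio of their signals, which is 0 for members that always change together. The 15 pairs among let-7a to let-7f had SDs of 0.060 to 0.30 with a median of 0.17. The 6 pairs of let-7g with these members had SDs of 0.28 to 0.44, and the 6 pairs of let-7i had 0.65 to 0.84. The pair of let-7g and let-7i had the largest SD of the family, 0.98, although these sequences differ by only 2 bases (A17G and A19U, with the base of let-7g first). let-7a and let-7d, which also differ by 2 bases and come from 1 cluster, had the smallest, 0.060. let-7b and let-7c, which differ by 1 base and share a cluster, had an SD of 0.11. For comparison, the 703 pairs of the other 38 miRNAs detected on all chips had a median SD of 1.05. Pairs that differ by 1 base had a median SD of 0.13 (4 pairs), by 2 bases 0.24 (8 pairs), by 3 bases 0.27 (8 pairs) and by 4 bases 0.58 (6 pairs). Pairs share members, so that they are not independent, and likeness of sequence, a shared cluster and cross-hybridization cannot be told apart in these values. Of the 8 members, let-7g and let-7i are those without a neighbouring miRNA gene.

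**Figure D4:**
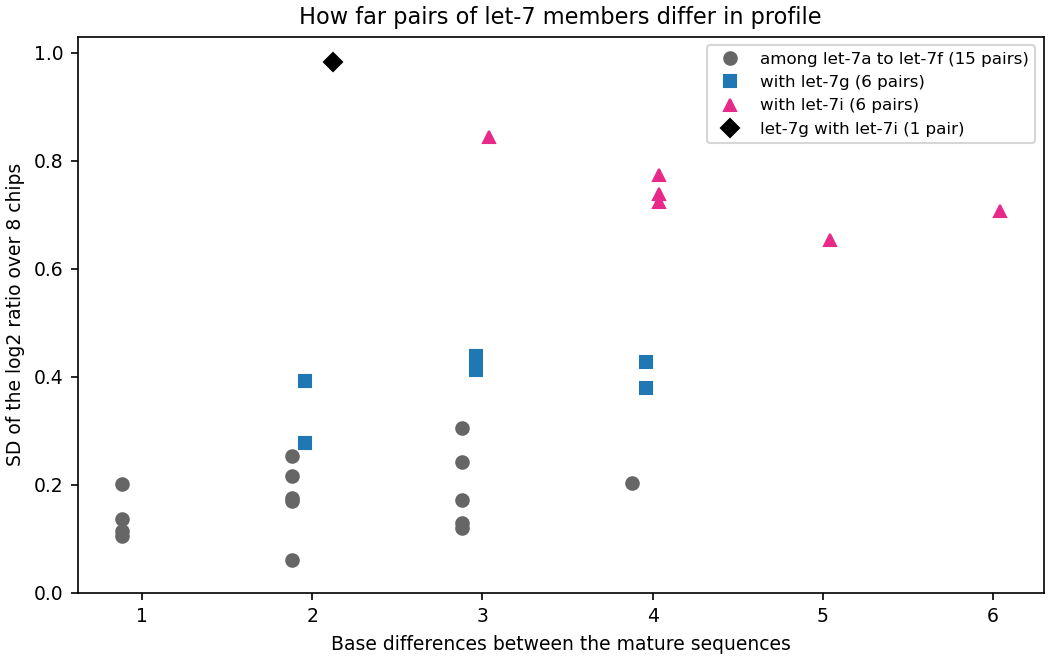
SD over the 8 chips of the log2 ratio of 2 let-7 members against the number of bases by which their mature sequences differ, with 1 point for each of the 28 pairs, shifted sideways by type of pair. The pair of let-7g and let-7i differs by 2 bases and has the largest SD, 0.98, and the 15 pairs among let-7a to let-7f lie between 0.060 and 0.30.

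Of 6 miRNAs listed as genomic neighbours or seed relatives of let-7, 4 have a probe, and none of these 4 passed the test of age. miR-99b and miR-125a lie within 1 cluster with let-7e. miR-99b was lower on the elderly chip in 4 of 4 tissues, at -0.51 on average on the log2 scale, with a standard error of 0.13 (limma, adjusted p = 0.114), but its liver signals of 2.81 and 2.92 units were below the limit. miR-125a had a mean log2 change of -0.13 and let-7e one of -0.18. miR-99a lies beside let-7c-1, and miR-125b has genes 46523 bases from let-7c-1 and 45115 bases from let-7a-2. miR-125b was higher in 4 of 4 tissues, at 0.27 on average with a standard error of 0.10 (limma, adjusted p = 0.233), and miR-99a in 3 of 4, at 0.15. Both differed between tissues in another order than let-7a and let-7c. The mean scaled level of miR-125b was 203 units in heart, 109 in lung, 78.5 in kidney and 53.5 in liver (adjusted p = 0.00198 for the F test of limma), with heart the highest, where let-7a and let-7c were lowest. Over the 8 chips, the scaled profile of miR-99a had a Pearson correlation of -0.73 with that of let-7c, as a description of chips that share 1 scaling. On the young liver chip, miR-99a, miR-125a and miR-125b were below the limit too, at 4.81, 6.71 and 7.04 units.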

How the data were processed

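Small RNAs from 20 µg of total RNA were labelled directly with a dye by the authors and hybridized to 1-colour chips with 200 miRNA probes. The deposited values are hybridization signal intensities, in a table without background subtraction and a second one lower by 1 constant per chip; how spots were scanned and summarised is not given in the sources used here. That constant was subtracted from the first table. Chips were divided by the median ratio over the 46 miRNAs at or above 10 units on all 8 chips (8 of them let-7), values below 10 scaled units were set to 10, and log2 was taken. Quantile scaling was an alternative because it replaces the brightest signals by ranks. The 96 miRNAs at or above 10 units on at least 4 chips were fitted in R 4.3.3 by limma 3.58.1. The fit of age had tissue as a block and that of tissue had age as a block, and p-values were adjusted by Benjamini-Hochberg (threshold 0.05). For pairs of tissues, adjustment ran over all miRNAs and the 6 pairs together. The fits were checked on simulated data. The number of chips limits the precision.

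The members and lists (6 neighbours or seed relatives; liver, heart, kidney, airway, blood cell and neuronal miRNAs) were chosen with earlier results of these data known. All 8 members and the neighbours are named, and the miRNAs most and least like the family. Of 3 neuronal miRNAs, at most 1 was above the limit on any chip. miR-124a was at 50.9 units on the elderly kidney chip, against 3.11 units on the young one, and below the limit on all others. miR-128a was at 11.1 and 14.8 units on the young and elderly heart chips. The cause was not tested. Alternatives were other scalings, background corrections, floors and filters, no block, the methods' t-test and leaving out each tissue. The normexp background correction was run with an offset of 50 units. Scaling to the let-7 mean and a floor of 65.7 scaled units were added after seeing the data.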

Additional observations from a re-analysis of the deposited data

How the results depend on the processing

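No let-7 member passed the test of age under any of 19 alternatives, and let-7i was lower in elderly mice under all 19, by -0.49 to -0.19 on the log2 scale (adjusted p from 0.0824 to 1, limma and the methods' t-test). Many of these alternatives could not turn the direction of let-7i. Its lowest scaled value, 66.3 units, lay above every floor, and the filters, the block and the t-test leave its mean change as it is. Leaving out a tissue could not turn it either, since let-7i was lower in every tissue. The small mean changes of the other members turned direction in places. Without scaling, let-7a was at 0.077, let-7c at 0.18, let-7d at 0.084 and let-7e at 0.053. With quantile scaling, let-7b was at -0.14 and let-7g at -0.052 over 8 chips, and let-7b at -0.094, let-7c at 0.034 and let-7g at -0.071 within tissues. With 75th percentile scaling, let-7b was at -0.046 and let-7f at -0.045. let-7c was at 0.025 with let-7 left out of the scaling set and at 0.051 with chips scaled to the let-7 mean, an alternative chosen after seeing the data. Leaving out each tissue gave -0.078 to 0.054 for let-7b and -0.028 to 0.055 for let-7f, negative without liver (-0.078 and -0.017) and without heart (-0.0033 and -0.028). In liver, 8 members were above 1.5-fold without scaling and 2 with let-7 left out of the scaling set. In lung, 1 member, let-7i, was below 1/1.5.

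Members that differed between tissues numbered 8 without scaling, 7 with normexp, 2 with let-7 left out of the scaling set, with a floor of 5 units and with chips scaled to the let-7 mean, and 1 with no filter on dim miRNAs. Leaving out a tissue gave 1 to 6 members: 1 without lung, 2 without kidney and 1 without heart. let-7i passed under 14 of 15 alternatives. The background moved too. miRNAs that differed between tissues, 61 of 96, numbered 93 without scaling, 33 among those detected on all 8 chips and 35 with a floor of 65.7 scaled units, chosen after seeing the data. With that floor, 5 of the 8 members differed.

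miRNAs higher in elderly mice, 3 in limma, numbered 9 without scaling, 8 with quantile scaling within tissues and 6 with a floor of 5 units. They numbered 0 with a floor of 30 units, with no filter, with chips scaled to the let-7 mean and with the floor of 65.7 scaled units (6, 8, 7 and 4 at an unadjusted p under 0.05). Leaving out a tissue gave 0 to 4, with 0 without lung, kidney or heart (5 each unadjusted). miRNAs lower in elderly mice, 0 in limma (13 unadjusted) and 0 by the methods' t-test (5 unadjusted), numbered 2 without scaling, 3 with quantile scaling, 6 with 75th percentile scaling, 8 with let-7 left out of the scaling set, 7 with quantile scaling within tissues, 2 with normexp, 5 with a floor of 5 units and 2 among those detected on all 8 chips. Leaving out a tissue gave 0 to 1, with 1 without liver. The cause of these moves was not tested.

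The fit with no replicate block (tissue not taken as a pairing) and the methods' t-test called 3 miRNAs higher and 0 lower, and let-7i had an adjusted p of 1 in both. With 1 chip per age and tissue, no spread between mice was measured. On the liver chips, 10 units correspond to 65.7 and 32.5 scaled units, so that dim miRNAs are not resolved there.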

Other observations

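The scaled profile of the mean of the 8 let-7 members, which ranged over 0.57 on the log2 scale, was compared with those of the 38 other miRNAs detected on all 8 chips. The highest Pearson correlations over the 8 chips were 0.61 for miR-30d, 0.56 for miR-26a, 0.47 for miR-103, 0.42 for miR-30a-5p and 0.28 for miR-126-3p, and the lowest was -0.73 for miR-22. For let-7i alone, a comparison chosen after its values were seen, the highest of 45 were 0.92 for miR-27a, 0.92 for miR-23b, 0.91 for miR-143, 0.91 for miR-126-3p, a miRNA of endothelial cells, and 0.90 for miR-24. These are descriptions of chips that share 1 scaling, with no test. The let-7d* probe reached the limit of 10 units only on the elderly lung chip, at 12.0 units, and was between 2.73 and 9.24 units on the others. With quantile scaling, let-7a in kidney, which ranked 1 on the young chip and 3 on the elderly one, had a log2 difference of -0.996 instead of -0.26.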
